A study of Homo sapiens with 12 samples.

Results

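Amino acids enter and leave cells through membrane carriers of the solute carrier (SLC) families, and 10 genes for carriers of the plasma membrane are described here: SLC3A2, SLC7A11, SLC7A5, SLC43A1, SLC7A1, SLC38A1, SLC38A2, SLC1A5, SLC1A4 and SLC6A9. They were chosen by name, as rows of the count table whose Ensembl identifier maps to one of these symbols, and all 10 were found among the 20015 genes of the table. The choice was made with earlier results of these data known. Shares over all genes are therefore given below as background, not as a test of the list. The cells were HT29, a line from a human colorectal adenocarcinoma, made to express the Cas9 nuclease. All had also been transduced with a lentiviral guide RNA, which targeted no gene in the cells called WT and targeted QRICH1 in those called QRICH1 KO. Cells of each genotype were kept for 14 h with tunicamycin (Tm, 0.3 µg/ml) or with DMSO, its solvent. Genotype and treatment give 4 groups of 3 libraries, which the series describes as biological replicates. The labels name the QRICH1 guide as a single condition and do not say whether the knockout cells were 1 clone or a pool. The series asks how QRICH1 shapes the response to stress of the endoplasmic reticulum (ER).

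Tunicamycin blocks N-linked glycosylation, and unfolded protein then builds up in the ER. One arm of the unfolded protein response raises translation of the transcription factor ATF4, which is also made when amino acids run short, and ATF4 is known to induce carriers and enzymes that restore the amino acid supply. SLC3A2, also called CD98 heavy chain, moves no amino acid itself: it is bound to a light chain such as SLC7A5 or SLC7A11, takes it to the cell surface, and the light chain does the transport. Transcripts alone were measured here, not protein, surface level or transport.

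ATF4 and its partners bind a short DNA element called CARE, and the members' promoters were searched for its core because the members moved together. The search used RefSeq promoter windows (GRCh38.p14) of 300 bases, with 250 before the transcript start and 50 from the start on, where the start base is position 1. Windows were matched by symbol for 9 of the 10 genes, 16 windows in all, and SLC7A11 had no entry. The core, TGATGNAA on either strand, stood in 5 windows of 5 members, and was in 3.62% of the 35116 windows of all genes. By gene, it was in 4.46% of the 27305 genes with a window. Each match is shown in capitals within 30 bases, read 5′ to 3′ on the strand of the gene.
SLC3A2: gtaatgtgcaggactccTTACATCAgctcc
SLC7A1: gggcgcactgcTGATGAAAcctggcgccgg
SLC38A1: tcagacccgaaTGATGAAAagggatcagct
SLC1A4: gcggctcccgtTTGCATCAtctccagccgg
SLC1A5: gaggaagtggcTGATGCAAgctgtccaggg
In SLC3A2 and SLC1A4 the core lies on the strand opposite to the gene, so that its reverse complement is printed. The stretches lie at chr11:62881719-62881748 (SLC3A2, plus strand), chr13:29595663-29595692 (SLC7A1, minus), chr12:46266502-46266531 (SLC38A1, minus), chr2:64989381-64989410 (SLC1A4, plus) and chr19:46784893-46784922 (SLC1A5, minus). The first base of the match is position 38 for SLC3A2, 8 for SLC7A1, -4 for SLC38A1, -7 for SLC1A4 and -97 for SLC1A5. The search had been planned for the 250 bases before the start, and only the SLC1A5 match lay wholly within them. The SLC38A1 and SLC1A4 matches ran across the start, and the SLC3A2 and SLC7A1 matches lay after it. The shares of 3.62% and 4.46% are for whole windows. Of the SLC3A2, SLC38A1, SLC1A4 and SLC1A5 windows, of which these genes have 3, 2, 2 and 3, only the window shown held the core. Positions count from the start of that window, which in these genes lies inside the gene as annotated. Which start the cells used was not tested. The core of the antioxidant response element, TGACNNNGC on either strand, stood in 4 windows of 4 members (SLC3A2, SLC7A5, SLC7A1 and SLC1A5). It was in 13.3% of all windows and in 16.1% of all genes with a window. Its SLC7A5 match ran across the start, and the others lay before it. The ER stress response element (ERSE), also sought on either strand, was in 0 of the 16 windows and in 0.0769% of all windows. No match of one motif overlapped a match of another in the members' windows. These matches describe letters in the windows, and binding was not measured.

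Depth was 6856736 to 17861844 counts per library, and a count of 0 allows up to 3 counts, which is 0.168 to 0.438 counts per 1000000 (CPM). This limit uses library totals and covers counting error only, and all other CPM values are scaled with TMM factors. Counts were present for 13124 to 14094 genes in 10 libraries, for 15340 in QRICH1 KO DMSO library 3 and for 14813 in QRICH1 KO Tm library 3. In WT libraries 1 to 3 QRICH1 itself stood at 22.7, 31.1 and 35.0 CPM with DMSO and at 30.8, 31.0 and 25.7 CPM with Tm. In QRICH1 KO it stood at 23.3, 24.1 and 24.8 CPM with DMSO and at 26.8, 22.4 and 19.2 CPM with Tm. Genotype groups overlapped for QRICH1 in both treatments, and edgeR's quasi-likelihood test with Benjamini-Hochberg adjustment called no difference (adjusted p = 0.577 under DMSO and 0.352 under Tm). Read counts over a whole gene do not show small edits made by Cas9, so these values do not check the knockout. HSPA5, the main ER chaperone, averaged 1081 CPM in WT DMSO and 27850 in WT Tm, and 1127 and 16463 CPM in the QRICH1 KO groups. The ER stress genes HERPUD1 and DNAJB9 also rose, 31.7-fold and 17.5-fold in WT and 22.9-fold and 12.2-fold in QRICH1 KO. The 8 epithelial markers summed to between 58155 and 99030 CPM. Most of this sum was KRT8, with group means of 38901 to 51535 CPM, and KRT18, with 22780 to 29015 CPM. The intestinal factor CDX2 averaged only 0.602 to 0.776 CPM per group. Summed markers of fibroblasts, endothelium and immune cells came to 3.90 to 4.76 CPM in WT DMSO, 2.19 to 3.05 in WT Tm, 3.45 to 5.88 in QRICH1 KO DMSO and 2.86 to 5.50 in QRICH1 KO Tm, with 1 of 14 at 0 in all 12 libraries. Of these lists VIL1, KRT19 and CD14 were called lower with Tm in WT and KRT19 also in QRICH1 KO, and their part in the results was not tested.

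All 10 transporter genes rose with tunicamycin, in WT and in QRICH1 KO cells, and in each gene the 3 Tm libraries lay above the 3 DMSO libraries of the same genotype. Differences were tested with edgeR's quasi-likelihood test on the counts of all 12 libraries, with p-values adjusted by Benjamini-Hochberg over the 11323 genes that passed a filter on low counts. The threshold for a call was an adjusted p under 0.05, and all 10 members passed the filter. In WT, 23.8% of all genes were called (12.6% higher), and in QRICH1 KO 15.6% (9.09% higher). Groups without overlap, with Tm above, made up 19% of genes in WT and 16.9% in QRICH1 KO. The members' median log2 fold change was 1.82 in WT and 1.48 in QRICH1 KO, beside -0.02 and 0.00 for all genes tested. Because the members were chosen with earlier results of these data known, these shares and medians do not test them as a set. The fold changes ran from 1.99 (SLC1A5) to 15 (SLC6A9) in WT and from 1.45 (SLC1A5) to 8.90 (SLC1A4) in QRICH1 KO. In bulk RNA a change in the number of cells and a change in RNA per cell cannot be told apart.

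**Figure D1:**
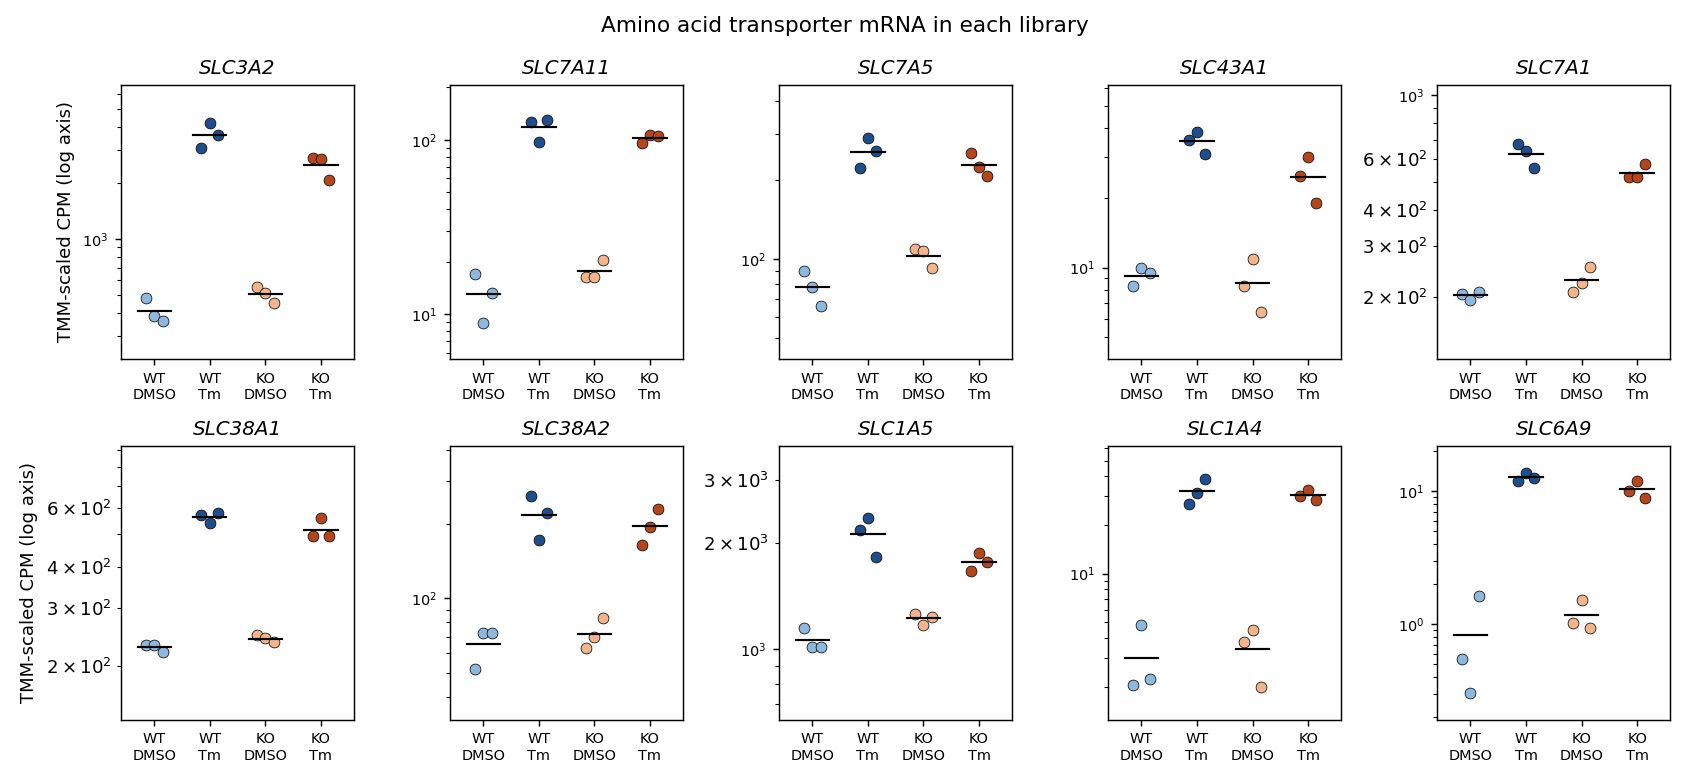
Level of each transporter gene in each library, in TMM-scaled CPM on a log axis. Points are libraries, horizontal lines are group means, and columns are WT and QRICH1 KO with DMSO or Tm. In all 10 panels every Tm point lies above every DMSO point of its genotype.

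SLC3A2 (ENSG00000168003.16, hg38 chr11:62856102-62888875, plus strand), the heavy chain, had the largest gain of the 10 in CPM per kilobase of exon. It stood at 483, 386 and 362 CPM in WT DMSO libraries 1 to 3 and at 3078, 4184 and 3613 CPM in WT Tm. In QRICH1 KO it was 549, 511 and 452 CPM with DMSO and 2712, 2691 and 2059 CPM with Tm. The 3 QRICH1 KO Tm libraries were thus far above both DMSO groups but below all 3 WT Tm libraries. The Tm response was a log2 fold change of 3.14 (SE 0.158, 8.84-fold, edgeR adjusted p = 3.81e-11) in WT and 2.30 (SE 0.152, 4.94-fold, edgeR adjusted p = 3.22e-09) in QRICH1 KO.

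SLC7A11 (ENSG00000151012.13, hg38 chr4:138164097-138242349, minus strand), the light chain of the cystine/glutamate exchanger xCT, brings in cystine for glutathione synthesis and exports glutamate. Its level was low without Tm, at 17.0, 8.83 and 13.2 CPM in WT DMSO and 16.2, 16.3 and 20.5 CPM in QRICH1 KO DMSO. With Tm it reached 127, 97.0 and 129 CPM in WT and 95.3, 106 and 105 CPM in QRICH1 KO. The Tm groups of the 2 genotypes overlapped. The log2 fold change was 3.21 (SE 0.190, edgeR adjusted p = 3.85e-10) in WT and 2.53 (SE 0.180, edgeR adjusted p = 8.72e-09) in QRICH1 KO. An antisense gene, SLC7A11-AS1, shares 8.97% of the exon bases of SLC7A11, and the library chemistry does not mark strand.

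SLC7A5 (ENSG00000103257.9, hg38 chr16:87830023-87869488, minus strand), known as LAT1, is the light chain that takes up large neutral amino acids such as leucine in exchange for glutamine. It was at 89.8, 78.0 and 66.3 CPM in WT DMSO and 222, 289 and 258 CPM in WT Tm. In QRICH1 KO it was at 109, 107 and 92.1 CPM with DMSO, each above the WT DMSO libraries, and at 254, 223 and 208 CPM with Tm, within and below the WT range. The Tm response was a log2 fold change of 1.72 (SE 0.134, edgeR adjusted p = 1.94e-08) in WT and 1.15 (SE 0.132, edgeR adjusted p = 5.02e-06) in QRICH1 KO. An antisense gene, AC126696.2, shares 5.71% of the exon bases of SLC7A5. SLC43A1 (ENSG00000149150.9, hg38 chr11:57484534-57515786, minus strand), or LAT3, carries large neutral amino acids without a heavy chain. In WT its levels were 8.30, 9.99 and 9.45 CPM with DMSO against 35.8, 38.5 and 31.0 CPM with Tm. QRICH1 KO cells had 8.31, 10.95 and 6.44 CPM with DMSO against 24.9, 29.97 and 19.0 CPM with Tm. As for SLC3A2, the QRICH1 KO Tm libraries of SLC43A1 lay between the DMSO libraries and the WT Tm libraries without touching either. The log2 fold change with Tm was 1.92 (SE 0.20, edgeR adjusted p = 9.23e-07) in WT and 1.52 (SE 0.198, edgeR adjusted p = 2.33e-05) in QRICH1 KO.

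SLC7A1 (ENSG00000139514.13, hg38 chr13:29509410-29595688, minus strand), or CAT1, imports the cationic amino acids arginine and lysine and has no heavy chain. It ranged from 194 to 208 CPM in WT DMSO, 561 to 679 in WT Tm, 208 to 253 in QRICH1 KO DMSO and 520 to 575 in QRICH1 KO Tm. The log2 fold change was 1.63 (SE 0.110, edgeR adjusted p = 2.28e-09) in WT and 1.24 (SE 0.109, edgeR adjusted p = 1.45e-07) in QRICH1 KO. SLC38A1 (ENSG00000111371.15, hg38 chr12:46183063-46270017, minus strand) and SLC38A2 (ENSG00000134294.14, hg38 chr12:46358189-46372867, minus strand) are neighbouring genes for the sodium-coupled carriers SNAT1 and SNAT2, which import glutamine and small neutral amino acids. SLC38A1 ranged from 220 to 232 CPM in WT DMSO, 540 to 580 in WT Tm, 236 to 248 in QRICH1 KO DMSO and 496 to 559 in QRICH1 KO Tm. Its log2 fold changes of 1.31 (SE 0.0961) in WT and 1.09 (SE 0.0954) in QRICH1 KO were the most precisely estimated of the 10. SLC38A2 ranged from 51.6 to 72.7 CPM in WT DMSO, 172 to 260 in WT Tm, 63.0 to 83.7 in QRICH1 KO DMSO and 165 to 230 in QRICH1 KO Tm. The log2 fold change of SLC38A2 was 1.73 (SE 0.172) in WT and 1.45 (SE 0.170) in QRICH1 KO.

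SLC1A5 (ENSG00000105281.12, hg38 chr19:46774883-46788594, minus strand), or ASCT2, exchanges glutamine and other small neutral amino acids. It was already abundant without Tm, at 1151, 1019 and 1013 CPM in WT DMSO and 1261, 1172 and 1237 CPM in QRICH1 KO DMSO. With Tm it reached 2167, 2347 and 1821 CPM in WT and 1668, 1871 and 1769 CPM in QRICH1 KO. Its fold change was the smallest of the 10, at a log2 value of 0.99 (SE 0.113, edgeR adjusted p = 2.84e-06) in WT and 0.53 (SE 0.112, edgeR adjusted p = 0.00314) in QRICH1 KO. An antisense gene, AC008622.2, shares 23.4% of the exon bases of SLC1A5, so part of its reads cannot be assigned to a strand. SLC1A4 (ENSG00000115902.11, hg38 chr2:64988477-65023865, plus strand), or ASCT1, a relative of SLC1A5 that exchanges alanine, serine and cysteine, was scarce without Tm. WT libraries had 2.04, 4.81 and 2.23 CPM with DMSO against 26.8, 31.4 and 38.6 CPM with Tm. QRICH1 KO libraries had 3.79, 4.51 and 2.0 CPM with DMSO against 30.4, 32.7 and 28.6 CPM with Tm. The 2 genotypes covered much the same range for SLC1A4 under either treatment, and the log2 fold change was 3.33 (SE 0.287, edgeR adjusted p = 7.34e-08) in WT and 3.15 (SE 0.276, edgeR adjusted p = 1.43e-07) in QRICH1 KO.

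SLC6A9 (ENSG00000196517.11, hg38 chr1:43991500-44031467, minus strand), or GLYT1, is a sodium- and chloride-coupled glycine carrier and had the lowest level per kilobase of the members in every group. Its counts were 4, 5 and 22 in WT DMSO and 18, 22 and 15 in QRICH1 KO DMSO, or 0.544, 0.304 and 1.64 CPM and 1.02, 1.52 and 0.938 CPM. With Tm it reached 11.9, 13.7 and 12.5 CPM in WT and 10.1, 11.9 and 8.91 CPM in QRICH1 KO. The log2 fold change of SLC6A9 was 3.90 (SE 0.377, edgeR adjusted p = 3.29e-07) in WT and 3.15 (SE 0.347, edgeR adjusted p = 3.03e-06) in QRICH1 KO. The WT value rests on few DMSO counts, and without WT DMSO library 3 it was 5.01. The protein-coding gene CCDC24, on the other strand, shares 7.83% of its exon bases.

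**Figure D2:**
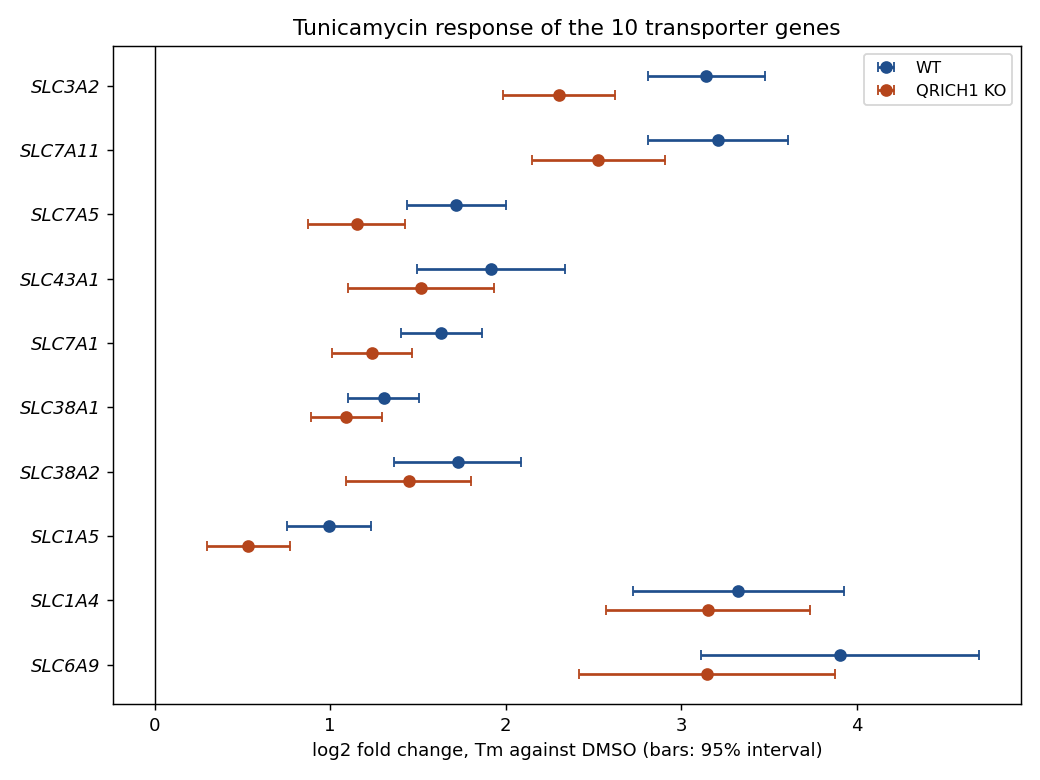
Tunicamycin response of the 10 genes as log2 fold change, Tm against DMSO, in WT (blue) and QRICH1 KO (orange); bars are 95% intervals from the edgeR fit. All 20 intervals lie above 0, and each QRICH1 KO point lies to the left of its WT point.

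By role, the largest fold changes were those of 3 carriers and the heavy chain, all at 8.84-fold or more in WT. The carriers were SLC6A9 (glycine), SLC1A4 (alanine, serine and cysteine) and SLC7A11 (cystine). The heavy chain SLC3A2 serves SLC7A5 as well as SLC7A11, so its rise cannot be given to 1 substrate. The carriers of large neutral and cationic amino acids (SLC43A1, SLC7A5 and SLC7A1) and the SNAT carriers of glutamine (SLC38A2 and SLC38A1) rose 2.47-fold to 3.78-fold in WT. The glutamine carrier SLC1A5 stood at 1.99-fold. These groups of substrates are a description, and differences between genes in fold change were not tested apart from the ratios given below.

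**Figure D3:**
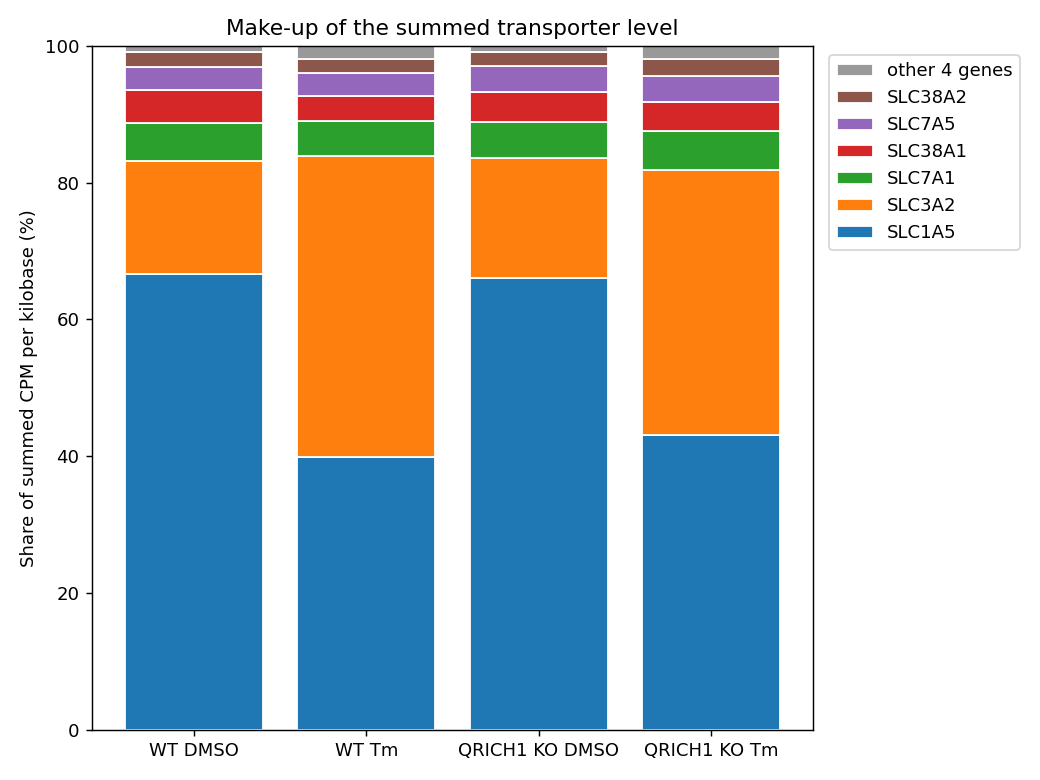
Make-up of the summed level of the 10 genes in each group, as mean percent of the summed CPM per kilobase of exon. SLC1A5 is the bottom segment and SLC3A2 the one above it; SLC3A2 covers 16.5% in WT DMSO and 44.0% in WT Tm.

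Levels of different genes were set side by side per kilobase of exon, using the union of GENCODE release 29 exons. In WT DMSO the order was SLC1A5 (318 ± 23.4 CPM per kilobase, SD, n = 3), SLC3A2 (79.2 ± 12.4), SLC7A1, SLC38A1, SLC7A5, SLC38A2, SLC43A1, SLC7A11, SLC1A4 and SLC6A9 (0.161 ± 0.138). With this length only SLC1A4 and SLC6A9, the last pair in that order, had libraries that overlapped. With the longest coding transcript SLC7A1 (4.29% of the summed level) and SLC38A1 (4.40%) changed places. The summed level of the 10 was 478 ± 36.7 CPM per kilobase in WT DMSO, 1588 ± 153 in WT Tm, 556 ± 15.8 in QRICH1 KO DMSO and 1235 ± 77.5 in QRICH1 KO Tm (SD, n = 3 each). SLC1A5 made up 66.7% of the sum in WT DMSO and 39.9% in WT Tm, while SLC3A2 went from 16.5% to 44.0%. SLC3A2 and SLC1A5 thus stood together at the top in WT Tm, at 700 ± 107 and 634 ± 80.2 CPM per kilobase, with libraries that overlapped. In QRICH1 KO, SLC1A5 made up 66.0% with DMSO and 43.1% with Tm, and SLC3A2 17.5% and 38.8%. The order of this pair depends on the length used: with the longest coding transcript SLC3A2 was at 56.0% and SLC1A5 at 31.0% in QRICH1 KO Tm. The order of SLC38A1 and SLC7A5, and of SLC7A11 and SLC43A1, was within the spread of the libraries in WT Tm.

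The balance of heavy to light chains was followed as the ratio of SLC3A2 to the summed CPM of the light chains that passed the filter (SLC7A5, SLC7A6, SLC7A7 and SLC7A11), within each library. This ratio was 3.74 ± 0.106 in WT DMSO, 9.24 ± 1.03 in WT Tm, 3.55 ± 0.139 in QRICH1 KO DMSO and 7.07 ± 0.737 in QRICH1 KO Tm (SD, n = 3 each). The Tm and DMSO libraries did not overlap in either genotype, and the QRICH1 KO Tm libraries (6.25 to 7.68) lay below the WT Tm libraries (8.42 to 10.4). An exact two-sided permutation test gave p = 0.1 for each of these 3 comparisons, which is the smallest that 3 against 3 allows, and 0.229 after Benjamini-Hochberg adjustment over 16 such tests. Per kilobase the ratio kept the same separations, at 3.71 to 3.97, 9.51 to 11, 3.56 to 3.77 and 6.95 to 8.49 in the same order of groups. SLC7A6 and SLC7A7, which with SLC3A2 exchange cationic for neutral amino acids, were not called in either genotype. SLC7A6 averaged 12 ± 0.211 CPM in WT DMSO and 12.1 ± 1.10 in WT Tm, and SLC7A7 6.46 ± 0.651 and 5.14 ± 0.892 (SD, n = 3). SLC7A8 and SLC7A10, the other light chains in the list, did not pass the filter.

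**Figure D4:**
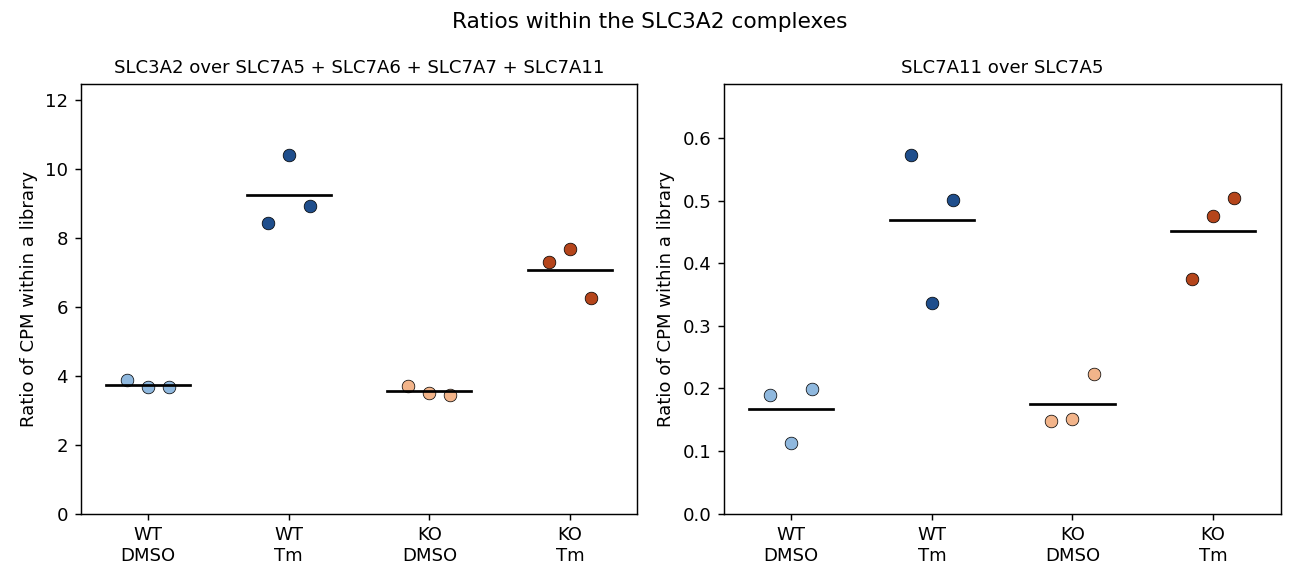
Ratio of SLC3A2 to the summed light chains (left) and of SLC7A11 to SLC7A5 (right) in each library, from CPM; lines are group means and both axes start at 0. Left, the WT Tm points (8.42 to 10.4) lie above the QRICH1 KO Tm points (6.25 to 7.68); right, the genotypes overlap under both treatments.

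Between the light chains, the ratio of SLC7A11 to SLC7A5 was higher in every Tm library than in any DMSO library of the same genotype. It was 0.167 ± 0.0473 in WT DMSO and 0.470 ± 0.121 in WT Tm, and 0.174 ± 0.0419 and 0.451 ± 0.0676 in QRICH1 KO (SD, n = 3 each). The exact permutation p was 0.1 in each genotype (adjusted 0.229), and the genotypes overlapped under both treatments. The log2 ratio of SLC1A5 to SLC1A4 averaged 8.56 with DMSO and 6.04 with Tm in WT, and 8.56 and 5.86 in QRICH1 KO, again without overlap and with the same exact permutation p of 0.1 and adjusted value of 0.229. The ratio of SLC38A2 to SLC38A1 was 0.288 ± 0.0574 in WT DMSO and 0.386 ± 0.0686 in WT Tm (SD, n = 3), with overlapping libraries (exact permutation p = 0.2).

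Under tunicamycin all 10 members had a lower fitted level in QRICH1 KO than in WT, but none was called. Over all genes 1.17% were called (0.76% lower), and 48.5% had a negative difference. The median difference of the members was -0.21 on the log2 scale, and that of all genes 0.01. The direction was negative for all 10 with TMM factors, with DESeq2 size factors and with library totals alone. An unadjusted edgeR p under 0.05 was reached by 3 members, SLC3A2, SLC43A1 and SLC1A5, and by 13.4% of all genes. The DESeq2 Wald test called 1 member, SLC3A2, and 2.48% of the genes to which it gave an adjusted p.

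SLC3A2 had the largest difference, with all 3 QRICH1 KO Tm libraries (2059 to 2712 CPM) below the WT Tm libraries (3078 to 4184 CPM). The log2 difference was -0.54 (SE 0.145, 95% interval -0.85 to -0.24), with an edgeR adjusted p of 0.0834 (unadjusted 0.00155). This value sits near the threshold: the adjusted p ran from 0.00120 to 0.238 over 19 alternatives, and was 0.0140 with DESeq2 and 0.180 without the 2 QRICH1 KO libraries 3. SLC43A1 differed by -0.52 (SE 0.188, interval -0.92 to -0.13, edgeR adjusted p = 0.225), also without overlap between the groups. Groups without overlap and with QRICH1 KO below made up 9.06% of all genes. The remaining 8 members overlapped between the genotypes, with log2 differences from -0.31 (SLC6A9) to -0.07 (SLC1A4). For SLC7A11 the interval ran from -0.56 to 0.15 and for SLC1A4 from -0.58 to 0.43, so that each includes differences in either direction. Beside these values, HSPA5 differed by -0.76 (SE 0.124, edgeR adjusted p = 0.00484) and HERPUD1, a factor of ER-associated degradation, by -0.57 (SE 0.107, edgeR adjusted p = 0.0118) in the same comparison, both called. DNAJB9 was not called, at -0.36 (SE 0.115, edgeR adjusted p = 0.167).

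**Figure D5:**
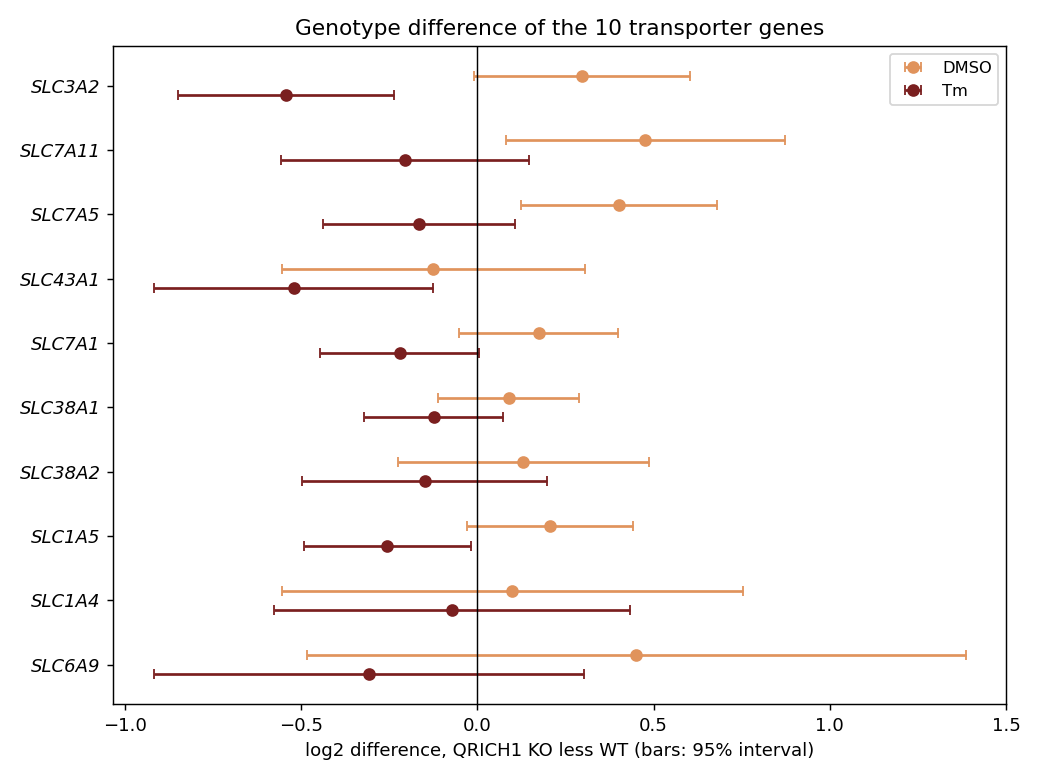
Log2 difference of each gene between QRICH1 KO and WT under DMSO (light) and Tm (dark), with 95% intervals from the edgeR fit. All 10 dark points lie left of 0, from -0.54 to -0.07, and 9 of the 10 light points lie right of it.

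Under DMSO most members had a higher fitted level in QRICH1 KO than in WT, and again none was called. Over all genes 0.0971% were called and 50.6% had a positive difference. The difference was positive for 9 members and negative for SLC43A1 (-0.12), with a median of 0.19. SLC7A5 was higher in all 3 QRICH1 KO libraries with a log2 difference of 0.40 (SE 0.132, interval 0.12 to 0.68, edgeR adjusted p = 0.351), and SLC38A1 (0.09) and SLC1A5 (0.21) also had groups without overlap, as had 7.4% of all genes with QRICH1 KO above. SLC7A11 differed by 0.48 (SE 0.188, interval 0.08 to 0.87, edgeR adjusted p = 0.458), with overlapping groups. These 2 genes, SLC7A5 and SLC7A11, had an unadjusted edgeR p under 0.05, as had 9.07% of all genes, and the DESeq2 test called 0 members and 0.546% of genes.

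The response itself was compared between genotypes with the interaction, the log2 Tm response in QRICH1 KO less that in WT. It was negative for all 10 members, from -0.84 for SLC3A2 to -0.17 for SLC1A4, with a median of -0.43, and negative for 48.8% of all genes. The edgeR test called 0 members and 0 genes (0%), an unadjusted p under 0.05 was found for 5 members (SLC3A2, SLC7A5, SLC1A5, SLC7A11 and SLC7A1) and for 6.84% of all genes. DESeq2 called 1 member, SLC3A2, and 0.84% of the 5475 genes to which it gave an adjusted p. For SLC3A2 the interaction was -0.84 (SE 0.206, interval -1.27 to -0.41, edgeR unadjusted p = 0.000719, adjusted p = 0.266), and the adjusted p ran from 0.00180 to 0.643 over the alternatives. As a share of the WT log2 response, the QRICH1 KO response was 0.536 for SLC1A5, 0.670 for SLC7A5, 0.733 for SLC3A2, 0.759 for SLC7A1, 0.787 for SLC7A11, 0.793 for SLC43A1, 0.806 for SLC6A9, 0.837 for SLC38A1, 0.838 for SLC38A2 and 0.948 for SLC1A4. These shares are a description, with no test. The Tm and DMSO samples enter both the interaction and the comparisons above, so the 3 sets of values are not independent of each other.

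Other amino acid carriers were called in either direction with Tm, beside 23.8% of all genes called in WT and 15.6% in QRICH1 KO. Of 25 further plasma membrane carriers 10 passed the filter, and in WT 1 was called higher and 2 lower with Tm, with a median log2 fold change of -0.34. The glutamine carrier SLC38A5 rose from 55.6 ± 3.10 to 82.6 ± 6.63 CPM (1.49-fold, SD, n = 3, edgeR adjusted p = 0.000848). SLC7A2, a cationic amino acid carrier related to SLC7A1, fell by 0.99 on the log2 scale (edgeR adjusted p = 0.0107), and the glutamate carrier SLC1A1 fell by 0.51 (edgeR adjusted p = 0.0379). In QRICH1 KO the only call was SLC3A1, the heavy chain of the cystine and dibasic amino acid carrier. It averaged 0.316 ± 0.0878 CPM with DMSO and 1.06 ± 0.533 with Tm (SD, n = 3), close to the limit of detection. In WT it averaged 1.17 ± 0.564 and 1.63 ± 0.362 CPM, so the QRICH1 KO Tm mean did not exceed the WT DMSO mean. SLC38A5 was not called in QRICH1 KO (1.25-fold higher with Tm, edgeR adjusted p = 0.0563). Of 14 carriers of mitochondria, lysosomes and other inner membranes 13 passed, and in WT 1 was called higher (SLC38A10, 1.57-fold) and 2 lower (the mitochondrial aspartate/glutamate carriers SLC25A12 and SLC25A13, at -0.79 and -0.32 on the log2 scale). In QRICH1 KO 1 was called lower, the mitochondrial glutamate carrier SLC25A22 (-0.55). It averaged 49.4 ± 8.81 CPM with DMSO and 33.7 ± 1.77 with Tm in QRICH1 KO (SD, n = 3). In WT it averaged 37.0 ± 3.47 and 33.8 ± 6.62 CPM. SLC38A10 was not called in QRICH1 KO (1.27-fold higher with Tm, edgeR adjusted p = 0.0642). The difference between these lists and the members was not tested.

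Most genes listed for the amino acid response were called higher with Tm. Of 21 listed genes 18 passed, and 15 were called higher and 0 lower in WT and 14 and 0 in QRICH1 KO, with medians of 2.29 and 1.89. Over all genes 12.6% and 9.09% were called higher. The mTORC1 inhibitor DDIT4 rose 28.3-fold and 14.2-fold, and the pseudokinase TRIB3 25.9-fold and 13.8-fold, in WT and QRICH1 KO. ATF4 mRNA rose 3.23-fold and 2.44-fold. Under Tm 1 of the 18 was called between genotypes, beside 1.17% of all genes. This was the serine hydroxymethyltransferase SHMT2, at 734 ± 53.6 CPM in WT and 550 ± 17.5 in QRICH1 KO (SD, n = 3, edgeR adjusted p = 0.0438). The genotype difference was negative for 16 of the 18 under Tm (median log2 -0.27) and positive for 16 under DMSO (0.30). The interaction was negative for 15 (-0.56). Over all genes these shares were 48.5%, 50.6% and 48.8%. Most of these genes thus had the same directions as the members. Of 11 genes of cysteine supply and of glutathione and thiol metabolism 9 passed, and 4 were called higher in each genotype: CHAC1, CTH, GCLC and TXNRD1. CHAC1, which degrades glutathione, rose 25.6-fold in WT and 11.3-fold in QRICH1 KO, and CTH, which makes cysteine from cystathionine by a route separate from cystine import, 9.14-fold and 6.05-fold. CBS, listed for the same route, did not pass the filter. It averaged 0.0406 CPM in WT DMSO, 0.0275 in WT Tm and 0 in both QRICH1 KO groups. How reads that match several places were counted is not given, so these values do not show whether CBS is expressed. The median of the 9 was 0.01 in WT, and the other 5 were not called. CHAC1, CTH and CBS belong to both lists.

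The genes whose log2 CPM followed each member most closely over the 12 libraries were sought among 6950 genes with a mean of at least 10 CPM, by Pearson's r. For every member the libraries form separate DMSO and Tm sets, and r spans both, so it describes this experiment and carries no test. SLC3A2 ran closest to SARS1, the seryl-tRNA synthetase (r = 0.999), the ER disulfide isomerase PDIA6 (0.998), GDF15 (0.997), ATF4 (0.997) and the ER co-chaperone DNAJB11 (0.996). SLC7A5 ran closest to the ER ubiquitin ligase SYVN1 (0.992), then ATF4, EIF4EBP1, TSC22D3 and TRIM27. SLC7A11 ran closest to NIBAN1 (0.991), and SLC38A1 to the serine synthesis enzyme PSAT1 (0.997). The ER genes HYOU1 (0.994) and SEC61A1 (0.993) led for SLC7A1. NAMPT (0.988) led for SLC38A2, MED10 (0.990) for SLC1A4, MPV17L2 (0.986) for SLC1A5, TRIB3 (0.987) for SLC6A9 and SLC35B1 (0.979) for SLC43A1. Between members r was 0.987 for SLC3A2 with SLC7A5 and 0.975 for SLC3A2 with SLC7A11, while the highest pair was SLC3A2 with SLC38A1 (0.989) and the lowest SLC38A2 with SLC7A5 (0.894).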

How the data were processed

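The 12 libraries were made by a modified Smart-seq2 method with Nextera XT, per the labels' protocols. The authors deposited raw counts, a whole number of reads for each gene and library. Their processing notes list Trimmomatic, STAR and DESeq2 with build hg38. How reads were counted, with which strand setting and annotation, is not given in the sources used here. Of 20015 identifiers 19893 matched a symbol and 19972 GENCODE 29. The members and lists were chosen with earlier results of these data known.

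Counts were fitted with edgeR 4.0.16 (R 4.3.3): filterByExpr with a minimum count of 10, TMM factors, 4 group means and a quasi-likelihood test, Benjamini-Hochberg adjustment over 11323 genes, calls at an adjusted p under 0.05. The common biological coefficient of variation was 0.155. SEs come from the F statistic, and p-values are two-sided. Ratios used exact permutation tests over libraries. The fit was tested on simulated data for Tm against DMSO in WT only. That run does not check the comparisons between genotypes or the interaction.

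The text names the 10 members, QRICH1, HSPA5, HERPUD1 and DNAJB9, up to 2 called genes per list, direction and comparison with the largest change, the genes of highest r per member and 3 motifs. Of the 5 highest r per member, all are given for SLC3A2 and SLC7A5, 2 for SLC7A1 and 1 for each other member, shortened after the values were seen. ATF4, GCLC, TXNRD1, CBS, SLC7A6, SLC7A7 and the markers CDX2, KRT8 and KRT18 were added after their values were seen. Alternatives were other scaling, no filter, DESeq2 1.42.0, fewer groups, a replicate block and left-out libraries. Those on gene length were added after seeing the data.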

Additional observations from a re-analysis of the deposited data

How the results depend on the processing

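Every rise of a member with Tm stayed called and in its direction in all 190 refits (10 genes, 19 alternatives) in WT and in all 190 in QRICH1 KO. Members called under Tm between genotypes went from 0 to 1, SLC3A2, with library totals alone (adjusted p = 0.0225, with 1.09% of all genes called), no filter (0.00120, 1.56%), the replicate block (0.0431, 1.42%) and the DESeq2 test (0.0140, 2.48%). For the interaction SLC3A2 was the 1 member called with no filter (0.00180, 0.246%) and DESeq2 (0.0146, 0.84%). The cause was not tested. Same-numbered libraries did not all deviate together, nor did every library correlate best with its own number: the correlations were -0.367, -0.152 and 0.088 between WT DMSO and WT Tm, and 0.547, 0.019 and 0.581 between the QRICH1 KO groups. The replicate block changed no other of the 50 member results.

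Only differences between genotypes that had not been called changed sign. With a library left out, the ranges under DMSO were -0.0102 to 0.22 (SLC38A2), -0.13 to 0.66 (SLC1A4), -0.0624 to 1.55 (SLC6A9) and -0.33 to 0.0422 (SLC43A1). SLC1A4 ranged from -0.21 to 0.0689 under Tm and from -0.74 to 0.0562 in the interaction. The genotype differences in log2 ratio ranged from -0.26 to 0.13 under Tm and -0.18 to 0.23 under DMSO for SLC7A11 to SLC7A5, from -0.17 to 0.11 and -0.12 to 0.17 for SLC38A2 to SLC38A1, and from -0.42 to 0.28 under DMSO for SLC1A5 to SLC1A4, which was 0.0507 with a pseudocount of 1 CPM. Without both QRICH1 KO libraries 3 the values under DMSO were -0.11 (SLC7A11 to SLC7A5), -0.0745 (SLC38A2 to SLC38A1), -0.0072 (SLC38A2) and 0.0265 (SLC43A1).

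With the longest coding transcript as the length, SLC1A5 held 57.1% of the summed level in WT DMSO and 27.6% in WT Tm, and SLC3A2 28.5% and 61.2%. Library totals alone moved the median of all genes to -0.21 (WT) and -0.11 (QRICH1 KO) with Tm, and the share of calls that were higher from 53.2% to 28.5% and from 58.2% to 36.3%; between genotypes it went from 34.8% to 53.7% under Tm and from 18.2% to 30% under DMSO. Over all genes the calls between genotypes were 132 under Tm (279 with no filter, 289 with DESeq2, 56 to 160 with a library left out), 11 under DMSO (138, 60, 5 to 39, 17 with the replicate block, 6 with only the groups compared, 59 without both QRICH1 KO libraries 3) and 0 for the interaction (44, 46, 0 to 4, 5 with library totals). Calls with Tm in QRICH1 KO were 1109 to 1858 with a library left out. SLC6A9 had only 4 to 22 counts per DMSO library, which limits its fold change.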
